A study of Dahlia pinnata with 6 samples.

Results

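miR162, miR168 and miR403 were followed in the pigmented red part and the unpigmented white part of bicolor dahlia petals. They are 3 of the 116 microRNA names, and 3 of the 47083 rows, of the small RNA count table deposited by the authors, and they were taken by exact name because each is known to guide cleavage of a transcript of the silencing machinery. All 3 passed the filter on low counts, as did 34 of the 116 microRNA names and 7001 rows in all. Every library came from petals of the genotype Yuino (organism label Dahlia pinnata, grown as D. variabilis in a greenhouse), with 3 libraries from dissected red tissue and 3 from dissected white tissue. The labels name no treatment, plant age or stage. Whether replicate libraries stem from different plants is not stated either, and p-values therefore cover the spread between libraries alone, some of which may be technical. The study asked whether flavonoids, the pigment family of the red part, hold back the 21-nt siRNA output of the Dicer-like enzyme DCL4.

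Plant microRNAs are cut from hairpin precursors by DCL1 and loaded into ARGONAUTE proteins, which use them to find and cleave matching transcripts. The pathway is under the control of its own products, as worked out in Arabidopsis. There miR162 guides cleavage of the DCL1 transcript, miR168 that of AGO1, the main ARGONAUTE of microRNAs, and miR403 that of AGO2, an ARGONAUTE known for antiviral defence. DCL4 is not a known target of these families. Their transcripts in dahlia were not analysed here, since the contigs of the table carry no gene names.

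Tabulated reads numbered 3277753 to 3662222 per library, of which microRNA names took 4.51% to 4.997% in red and 3.65% to 3.87% in white. Levels are given as CPM, read counts scaled to a common total of the tested rows by TMM, a scaling that assumes that most rows do not differ. The TMM factor was 0.84 in white replicate 2 and 0.98 to 1.10 in the other libraries, so equal counts give a higher CPM in that library. Mature microRNAs have nearly the same length and reads were not divided by it. Levels of different microRNAs are therefore compared as reads, and the efficiency with which each was ligated into the libraries was not measured.

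miR162 was by far the most abundant of the 3, and its level varied so much within each part that the red and white libraries overlapped. It had 3973, 5544 and 4842 reads in red replicates 1, 2 and 3 and 6349, 4081 and 5242 reads in white replicates 1, 2 and 3. In CPM these counts were 1024, 1612 and 1415 in red and 1886, 1472 and 1559 in white. Red replicate 1 was the lowest of the 6 libraries and white replicate 1 the highest, and the other 4 lay between. The mean of the red libraries was 1350 ± 299 CPM and that of the white libraries 1639 ± 218 CPM (SD, n = 3 per part), with a log2 fold change (white minus red) of 0.28 ± 0.16 SE and a 95% interval from -0.08 to 0.64 (edgeR adjusted p = 0.53). The spread between red libraries was 22.1% of their mean, against 1.45% for counting error alone. Without red replicate 1 the log2 fold change was 0.11, and without white replicate 1 it was 0.17.

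miR168 was lower in every white library than in every red one, by a margin that did not pass the test over all rows. It had 1019, 947 and 1003 reads in the red replicates and 685, 705 and 706 in the white ones. The lowest red count had an exact Poisson 95% interval of 888 to 1009 reads, and the highest white count one of 655 to 760.1. These intervals are on unscaled counts and cover counting error only. The gap between them does not carry over to CPM, where red replicate 1 (263) and white replicate 2 (254) were close. After scaling, the red libraries held 263, 275 and 293 CPM and the white ones 203, 254 and 210.0 CPM. White replicate 2 came closest to the red libraries in CPM, though its read count was level with that of white replicate 3. The red mean was 277 ± 15.3 CPM and the white mean 223 ± 27.7 CPM (SD, n = 3 per part), a red to white ratio of 1.24. The log2 fold change was -0.32 ± 0.13 SE, with a 95% interval from -0.60 to -0.04 (edgeR unadjusted p = 0.030, adjusted p = 0.33). Among the 3 microRNAs it varied least between red libraries, with an SD of 5.51% of the mean against 3.18% for counting error. This did not hold in white, where the SD was 12.4% of the mean for miR168, 9.62% for miR403 and 13.3% for miR162.

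miR403 had the log2 fold change farthest from 0 of the 3, and its red libraries replicate 1 and replicate 3 stood well above the rest. It had 1300, 961 and 1476 reads in the red replicates and 794, 793 and 887 in the white ones. In counts every red library was above every white one, but in CPM red replicate 2 (279) stood below white replicate 2 (286). The remaining levels were 335 and 431 CPM in red replicates 1 and 3 and 236 and 264 CPM in white replicates 1 and 3. The white libraries were close to each other and the red ones spread widely, with a red mean of 349 ± 76.9 CPM and a white mean of 262 ± 25.2 CPM (SD, n = 3 per part). The log2 fold change was -0.41 ± 0.16 SE, with a 95% interval from -0.76 to -0.07 (edgeR unadjusted p = 0.022, adjusted p = 0.29). It was -0.23 without red replicate 3, the highest library.

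**Figure D1:**
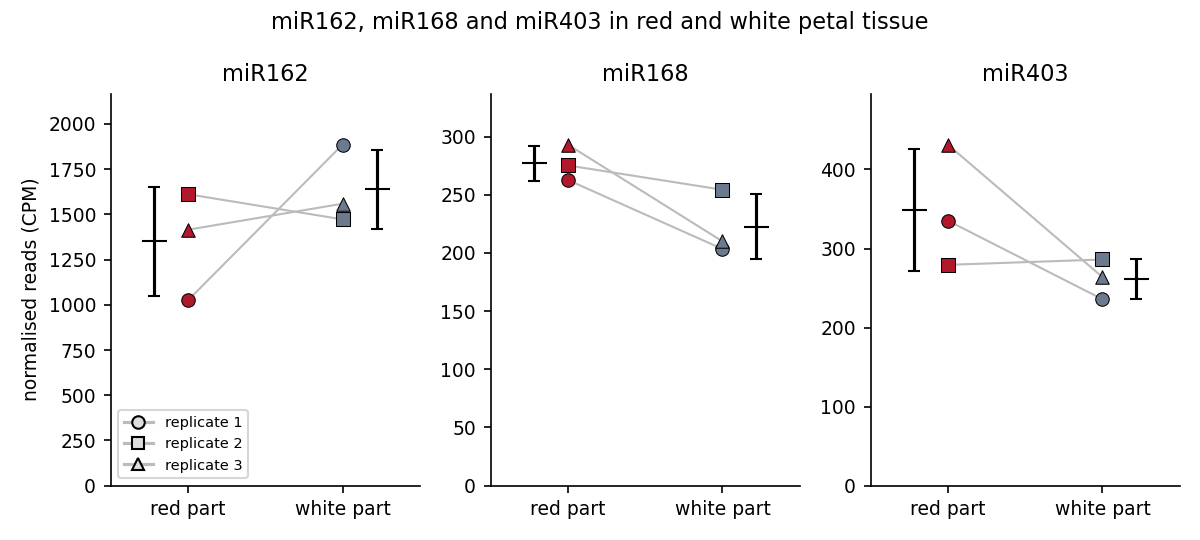
Level of each microRNA in CPM (y axis, from 0, a separate scale per panel) in the 3 red and 3 white libraries; marker shapes give the replicate number, grey lines join libraries with the same number, and black bars beside the points give mean ± SD. The miR168 panel is the only one of the 3 in which red (263 to 293 CPM) and white (203 to 254 CPM) do not overlap, while miR162 runs from 1024 to 1886 CPM.

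None of the 3 microRNAs passed the threshold of 0.05 on the adjusted p in edgeR, where 1.06% of the 7001 tested rows passed in either direction, with 0.528% lower and 0.528% higher in white. With the replicate number as a block 4.83% of rows passed, and again 0 of the 3 microRNAs. DESeq2 left the adjusted p of 3937 rows undefined, and of the 3064 rows with one it called 3.56%, among them 0 of the 3 microRNAs. At an unadjusted p under 0.05 in edgeR, 2 of 3 were lower in white, as were 6.28% of all tested rows and 29.4% of the 34 tested microRNA names; by DESeq2 0 of 3 had such a p in either direction, against 8.11% of all tested rows. The edgeR count was 0 of 3 without red replicate 3 or without white replicate 1. With scaling to the microRNA total it was 1 of 3, which was miR162 as higher in white (unadjusted p = 0.026), while miR168 and miR403 had edgeR p-values of 0.45 and 0.25. Libraries of the 2 parts did not overlap, with white lower, for 1 of 3 (miR168), against 8.84% of all tested rows and 20.6% of the tested microRNA names. No difference between the 3 microRNAs and the other microRNA names was tested.

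Direction was then read within same-numbered libraries, with TMM scaling. For miR168 white was below red in all 3 numbers, by log2 differences of -0.37, -0.11 and -0.48 for replicates 1, 2 and 3. For miR403 the differences were -0.51, 0.03 and -0.71, and that of replicate 2 was -0.22 with scaling to library totals. For miR162 they were 0.88, -0.13 and 0.14. Replicate 2 of miR162 was at -0.38 with library totals, and replicate 3 at 0.51 with scaling to the total of microRNA names. Over all 9 combinations of a red and a white library with TMM, white was lower in 9 for miR168, in 8 for miR403 and in 2 for miR162. For miR403 it was lower in 9 with library totals and in 7 with the total of microRNA names. With TMM the libraries numbered 2 thus differed least for all 3 microRNAs, though for miR162 only narrowly (-0.13, against 0.14 in replicate 3).

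The scaling moved the size of the fold changes between the parts and left their signs. Over all tested rows the median of the log2 fold changes was -0.17 with scaling to library totals, 0.18 with scaling to the total of microRNA names and -0.01 with TMM. miR168 had log2 fold changes of -0.49 with library totals and -0.14 with the microRNA total. Taken relative to the median of all rows these were -0.32 and -0.32, against -0.31 with TMM. miR403 likewise stood at -0.42, -0.40 and -0.40 relative to the median with library totals, the microRNA total and TMM, and miR162 at 0.30, 0.30 and 0.29. A change of scaling moves all rows by nearly the same amount, so these near-equal values follow from the calculation. In raw terms miR403 had -0.58 with library totals and -0.23 with the microRNA total, and miR162 had 0.14 and 0.48. The edgeR adjusted p lay between 0.12 and 0.80 for the 3 microRNAs under both scalings.

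As a share of the microRNA reads, miR168 was nearly constant within each part. It took 0.585%, 0.598% and 0.612% of them in the red replicates and 0.522%, 0.540% and 0.569% in the white ones. These values did not overlap, but how many other rows were so on this scale was not counted. With TMM, 20.6% of the tested microRNA names and 8.84% of all tested rows were lower in white without overlap. With scaling to the microRNA total the edgeR unadjusted p of miR168 was 0.45. miR403 took 0.746%, 0.606% and 0.901% in red and 0.605%, 0.608% and 0.715% in white, and here the parts overlapped. miR162 took 2.28%, 3.50% and 2.96% in red and 4.83%, 3.13% and 4.22% in white. Most microRNA reads belonged to miR396, miR159 and miR166, and with those left out of the total miR168 took 3.596%, 3.61% and 3.64% in red and 2.77%, 2.37% and 2.97% in white. On that base the red values were nearly equal and the white ones all lower, again without a count over other rows. Summed, the 3 microRNAs took 4.26% ± 0.57 of the microRNA reads of red libraries and 5.25% ± 0.87 of those of white libraries (SD, n = 3 per part; two-sided exact permutation p = 0.3, adjusted 0.6 over 2 shares). Their summed share of all tabulated reads was 0.202% ± 0.027 for red libraries and 0.196% ± 0.029 for white ones (exact permutation p = 0.7, adjusted 0.7). miR162 supplied most of these reads, but the summed share of all reads did not follow it in every library. That sum was lowest in white replicate 2 (0.166%), whereas miR162 alone was lowest in red replicate 1 (0.108%).

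Ratios between 2 of the microRNAs within a library need no scaling between libraries. The balance of miR162, which acts on the Dicer of microRNA production, over miR168, which acts on the ARGONAUTE that uses its products, was 3.90, 5.85 and 4.83 reads of miR162 per read of miR168 in the red replicates. In the white replicates it was 9.27, 5.79 and 7.42. Replicate 2 had nearly the same ratio in both parts, whereas in replicates 1 and 3 the white ratio was the higher one. The red libraries averaged 4.86 ± 0.98 and the white ones 7.49 ± 1.74 (SD, n = 3 per part). The log2 ratio was 0.62 higher in white, with single combinations of a red and a white library from -0.02 to 1.25 (two-sided exact permutation p = 0.2, adjusted 0.3 over 3 ratios). White was higher in 8 of the 9 combinations. A design of 3 libraries against 3 cannot give a p below 0.1.

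The ratio of miR162 to miR403 had the same pattern over libraries, as it shares miR162 with the ratio above. It was 3.06, 5.77 and 3.28 in the red replicates and 7.996, 5.15 and 5.91 in the white ones. Red replicate 2 stood far above the other red libraries and inside the white range. The log2 ratio was 0.69 higher in white, from -0.16 to 1.39 over the 9 combinations (exact permutation p = 0.2, adjusted 0.3).

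miR168 and miR403, which act on 2 ARGONAUTE transcripts, kept close to each other. There were 0.784, 0.985 and 0.680 reads of miR168 per read of miR403 in the red replicates and 0.863, 0.889 and 0.796 in the white ones. miR403 was the more abundant in all 6 libraries, by least in red replicate 2. The red libraries averaged 0.816 ± 0.156 and the white ones 0.849 ± 0.048 (SD, n = 3 per part), and the log2 ratio differed by 0.07, from -0.31 to 0.39 over the 9 combinations (exact permutation p = 0.7, adjusted 0.7). As this test cannot give a p below 0.1 with 3 libraries against 3, it could not tell a difference of any size from 0 at 0.05.

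**Figure D2:**
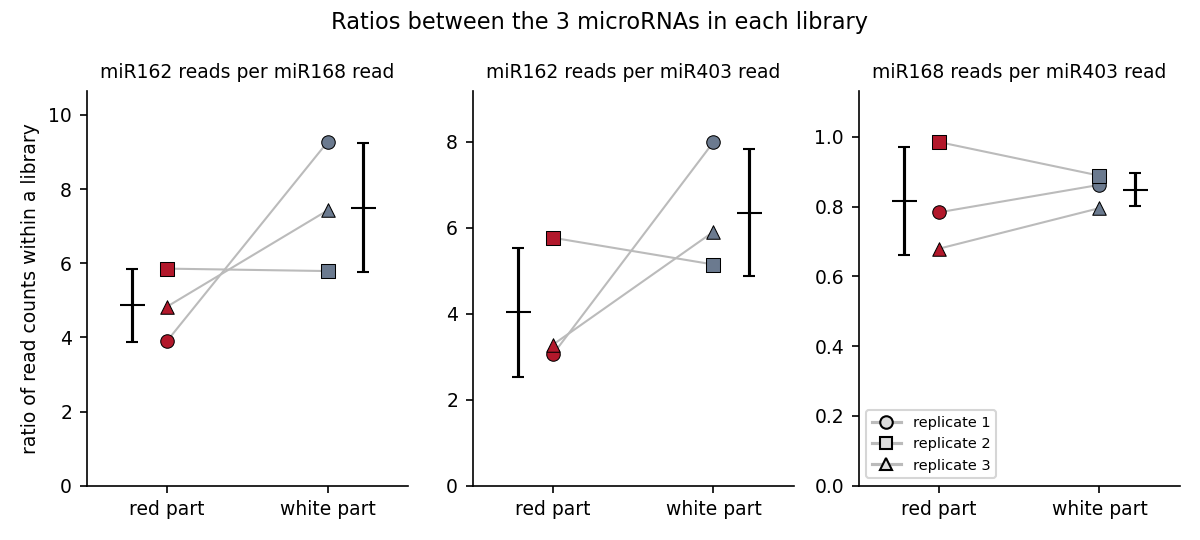
Reads of one microRNA per read of another within each library (y axis, linear from 0, a separate scale per panel) for the 3 red and 3 white libraries, with marker shapes for replicate numbers, grey lines between same-numbered libraries and mean ± SD in black. miR162 per miR168 runs from 3.90 to 5.85 in red and 5.79 to 9.27 in white, while miR168 per miR403 stays between 0.680 and 0.985 in all libraries.

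The order of the levels was the same in every library: miR162 above miR403 and miR403 above miR168. Among the tested microRNA names miR162 ranked 4, miR403 ranked 10 and miR168 ranked 12 by mean CPM, and among all 7001 tested rows they ranked 52, 232 and 280. Next above miR162 was miR166, a regulator of class III HD-ZIP genes, with 8550 ± 1028 CPM in the red and 5366 ± 240.1 CPM in the white libraries. Next below it was miR858, a regulator of MYB genes, with 1521 ± 455 and 1341 ± 113 CPM (SD, n = 3 per part). The red means of miR162 and miR858 lay within their spread of each other. Next above miR403 was miR171, which targets GRAS genes, at 748 ± 266 and 448 ± 54.6 CPM. The row named miR-24 lay between miR403 and miR168 with 288 ± 62.3 CPM in the red and 278 ± 38.5 CPM in the white libraries, and below miR168 came miR170 at 279 ± 94.3 and 157 ± 19.2 CPM. In red the means of miR168, miR-24 and miR170 thus differed by less than their spread.

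The microRNA names with the most similar profiles were found by the root-mean-square difference of log2 CPM over the 6 libraries, each profile centred on its own mean, among the 33 other tested names. Profiles share the libraries and their scaling factors, so this is a description. Closest to miR168 were miR159 at 0.14, miR403 at 0.17 and miR-99 at 0.18. Closest to miR403 were miR168 at 0.17, miR166 at 0.19 and miR165 at 0.23. miR168 and miR403 were thus among each other's 3 nearest. miR159 targets GAMYB-like genes, and miR165 and miR166 are near-identical regulators of class III HD-ZIP genes that can share reads. Closest to miR162 were miR-24 at 0.18, miR396, a regulator of GRF genes, at 0.23 and miR-12 at 0.30.

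Counted from the lowest log2 fold change, miR403 ranked 13, miR168 ranked 15 and miR162 ranked 25 of 34. Of the 32 other conserved plant families listed, 25 were in the table and 19 were tested. Among these 13 had a log2 fold change below 0 and 6 above, 1 passed as lower (miR166) and 0 as higher, and the median was -0.23. All 34 tested names had a median of -0.18 and all tested rows one of -0.01.

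Some plant microRNAs start the production of phased siRNAs, the products of DCL4 that the study asked about. Of 11 such triggers listed, 3 were in the table by exact name. Names in the table hold at most 6 characters, so the longer trigger names on the list could not have matched. The absence of those longer names is therefore no measure of their level. miR173, miR472 and miR828 are short enough to have matched and had no row. miR393, which targets auxin receptors and is a trigger in some of its forms, had 61, 44 and 15 reads in the red replicates and 42, 47 and 39 in the white ones (log2 fold change 0.30 ± 0.38 SE, edgeR adjusted p = 0.82). miR390, which acts with AGO7 on TAS3, had 0 to 5 reads per library, and miR482, a trigger at disease resistance genes, had 1 to 5. Neither was deep enough to be tested, so a difference of these triggers was not detectable at this depth.

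**Figure D3:**
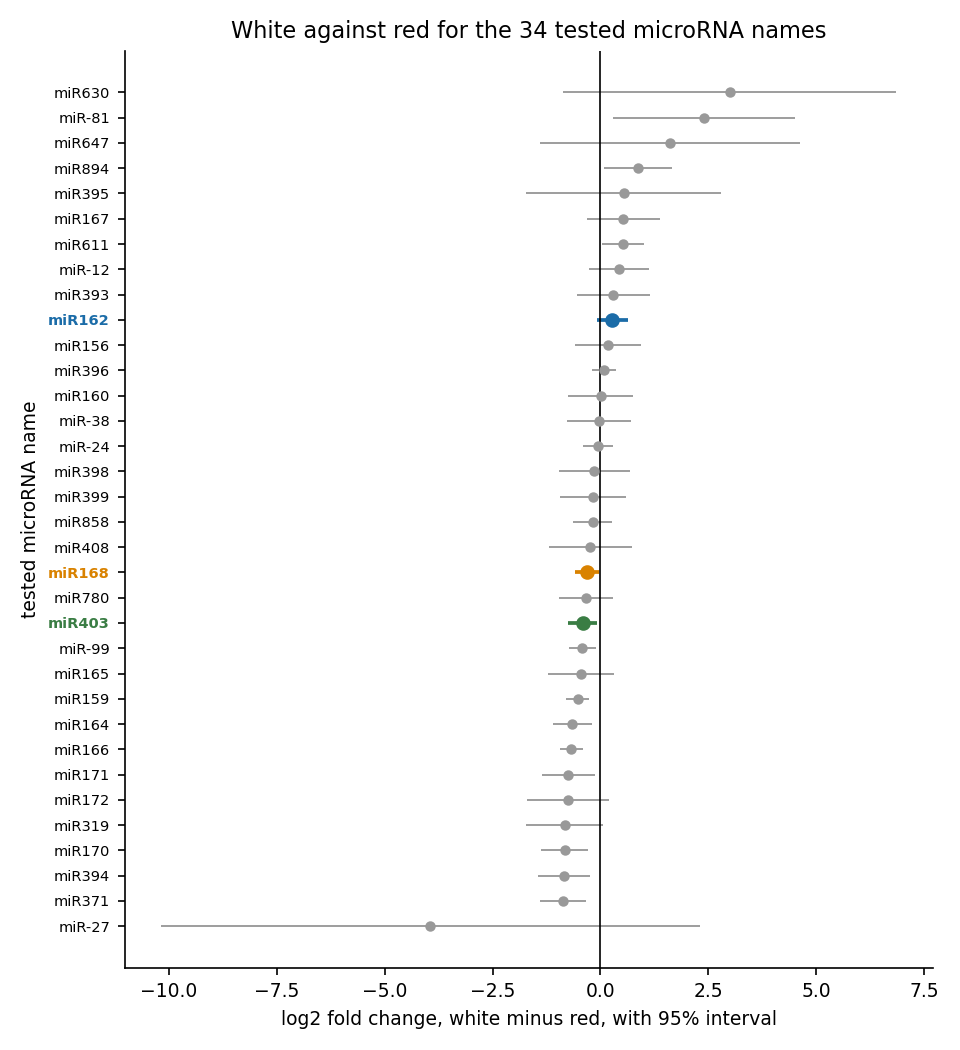
Log2 fold change (white minus red, x axis) with its 95% interval for the 34 tested microRNA names (y axis, sorted), with miR162, miR168 and miR403 in colour. miR162 (0.28) lies right of 0 with an interval that spans it, and miR168 (-0.32) and miR403 (-0.41) lie left of 0 among many other names with values below 0.

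Each setting of the analysis that was tried kept the signs of the 3 log2 fold changes and gave no adjusted p under 0.05. Over 13 alternatives miR162 ranged from 0.11 to 0.48, miR168 from -0.49 to -0.14 and miR403 from -0.58 to -0.23. The lowest edgeR adjusted p of any of them was 0.073, for miR403 without red replicate 2.

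**Figure D4:**
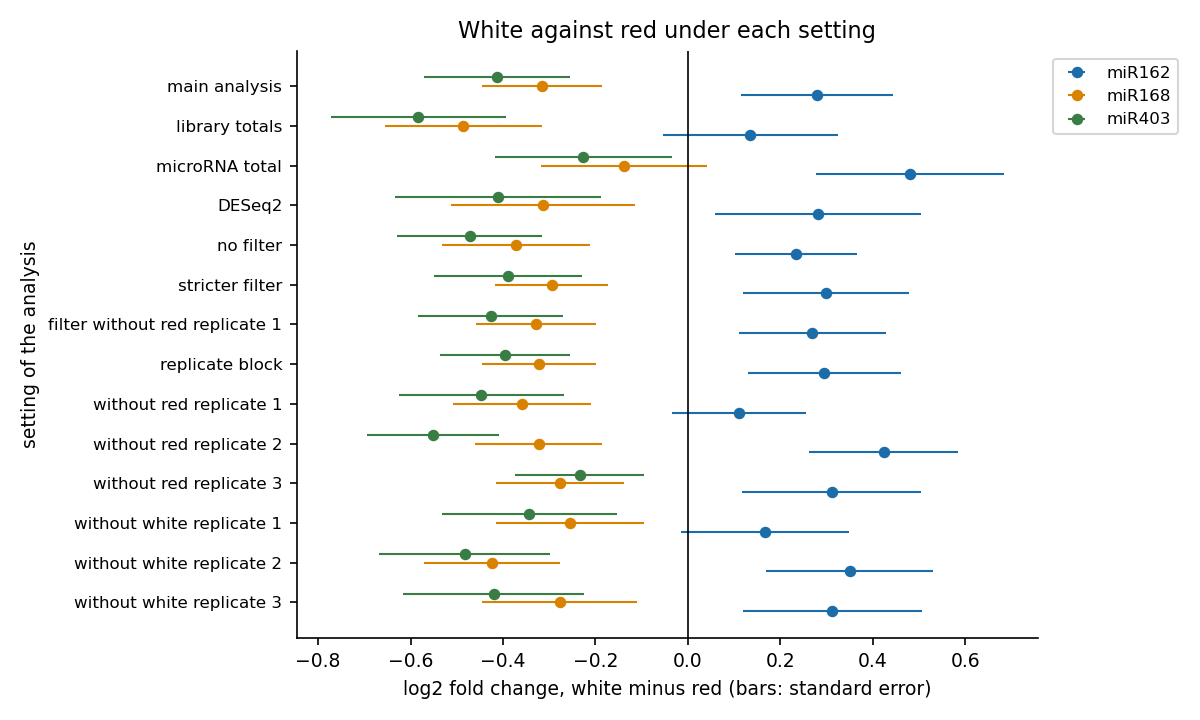
Log2 fold change (white minus red, x axis) with its standard error for miR162, miR168 and miR403 in the main analysis and under 13 alternative settings (y axis). All points of miR162 lie right of 0 (0.11 to 0.48) and all points of miR168 and miR403 left of 0 (-0.58 to -0.14); miR162 comes nearest to 0 without red replicate 1, and miR168 and miR403 with scaling to the microRNA total.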

How the data were processed

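The authors deposited raw counts of small RNA reads, not normalised, for contigs of a Trinity assembly and for microRNA names. Small RNA libraries were made with a NEBNext kit from Trizol-extracted total RNA, per the labels' protocols, and cutadapt and Bowtie2 were used, per the submitters' processing notes. Versions, settings, the read lengths counted, the handling of reads with several matches and the microRNA sequences matched are not given in the sources used here. Names hold at most 6 characters, so a row could join a family with one of a longer number. No row was at 0 in red replicate 1, a property of the table that bears on low rows. Groups and replicate numbers came from the sample titles.

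White was compared with red in all 47083 rows with the quasi-likelihood test of edgeR 4.0.16 in R 4.3.3 (TMM, robust dispersion, filter with a minimum count of 10), with Benjamini-Hochberg adjustment over the 7001 tested rows. The SE is the log2 fold change divided by the square root of F, and the 95% interval uses the test's degrees of freedom. For ratios and shares, exact permutation tests (two-sided) were run in scipy 1.17.1. DESeq2 1.42.0 was an alternative. The block was an alternative that took the replicate numbers of the sample titles, which both parts share, as pairs. Deviations from group means (log2, prior count 2) of same-numbered libraries correlated over the rows at 0.20, 0.29 and 0.20. No label says that same-numbered libraries belong together. No 2 libraries of the same part agreed within sampling noise (lowest chi-square per degree of freedom 4.89). Red libraries were not checked against white ones in this way.

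Named rows were the 3 microRNAs, the 3 nearest profiles and the neighbours in level of each, and the rows of both lists. These and the lists were chosen with earlier results of these data known.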

Additional observations from a re-analysis of the deposited data

How the results depend on the processing

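For the log2 fold changes of miR162, miR168 and miR403, all 13 alternatives kept the sign and the side of the threshold. The replicate block gave edgeR adjusted p-values of 0.40, 0.18 and 0.14 and changed no call of these 3, and in the exact sign-flip test of same-numbered pairs, which cannot go below 0.25, the p was 0.5 for both ratios with miR162, 0.75 for miR168 to miR403, 0.5 for the share of microRNA reads and 1 for that of all reads. With 1 library left out, log2 fold changes ran from 0.11 to 0.42 for miR162, from -0.42 to -0.26 for miR168 and from -0.55 to -0.23 for miR403, and the difference in log2 ratio from 0.51 to 0.98 for miR162 to miR403, from -0.79 to -0.45 for miR168 to miR162 and from -0.05 to 0.22 for miR168 to miR403, which turned to -0.051 without red replicate 3. The summed share of all reads differed by -0.0060 percentage points (white minus red), by 0.042 with the 10 most abundant rows left out of the total, and from -0.021 to 0.0094 when single libraries were left out, with a positive sign once red replicate 3 or white replicate 2 was missing. That of microRNA reads differed by 0.99 points, and by 0.63 without white replicate 1. With the 3 most abundant microRNA rows left out of the total, which makes the total much smaller, it differed by 0.66 points (exact permutation p = 0.9). The 74 rows that passed in the main analysis became 154 with library totals, 135 with the microRNA total, 254 with no filter, 338 with the block, 109 with DESeq2 and 35 to 176 with 1 library left out, namely 46 when red replicate 1, 176 when red replicate 2 and 35 when white replicate 3 was missing. Of these, 37 were higher and 37 lower in the main analysis, 45 and 109 with library totals and 116 and 19 with the microRNA total. The causes were not tested. Counting error alone gives an SD of 3.18% of the mean for miR168 in red, where libraries differed by 5.51%, and of 1.45% for miR162, where they differed by 22.1%. In white the libraries differed by 12.4% for miR168 and by 13.3% for miR162.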

Other observations

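The departures of miR162 from its group mean ran opposite in same-numbered libraries. On the log2 scale they were -0.37, 0.28 and 0.09 in red replicates 1, 2 and 3 and 0.21, -0.15 and -0.06 in white replicates 1, 2 and 3. Over all tested rows the departures of same-numbered libraries correlated positively but weakly, at 0.20, 0.29 and 0.20 for replicates 1, 2 and 3. miR168 departed by -0.07, -0.01 and 0.08 in red and by -0.12, 0.20 and -0.08 in white, and miR403 by -0.03, -0.30 and 0.33 in red and by -0.15, 0.13 and 0.01 in white. No test was made of these departures.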
